A study of Mus musculus with 2 samples.

Results

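The region that holds the tumor necrosis factor and lymphotoxin genes Tnf, Lta and Ltb was examined for Tcf1 binding, together with its neighbors Nfkbil1, Lst1 and Aif1. Its members are the deposited peaks with a summit, the base of highest coverage, on mouse chromosome 17 from 35300001 to 35400000 (mm9), a bin of 100 kb. The bin held 18 of the 22286 deposited peaks. Of these, 16 were high-confidence peaks (88.9%), that is peaks enriched by 4 or more over the control with a caller's p below 1e-05 and q below 0.05, beside 85.4% of the whole list. The peaks were chosen by their summit positions, and the bin was selected on its number of peaks, so that number and the strength of the peaks are given as a description, without a test.

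Binding was measured by ChIP-seq with an anti-Tcf1 antiserum in naïve CD8+ T cells sort-purified from spleen as GFP+ TCRbeta+ CD62Lhi CD44lo-med CD8+ cells, in 1 WT library (36938606 fragments kept) and 1 Tcf1-deficient library (27625250 fragments kept). The series describes both groups as hCD2-Cre, Rosa26-lsl-GFP mice, with WT or floxed Tcf1 and Lef1 alleles, and labels the genotype of the control cells Tcf1-/-Lef1-/-. The study's methods instead describe Cd4-Cre+ Tcf7 fl/fl (Tcf7-/-) mice for the control library, so whether Lef1 was also absent cannot be told from these sources. Both Cre drivers act in T cells, Cd4-Cre from the CD4+ CD8+ stage in the thymus and hCD2-Cre, per the study, mainly in the periphery. Mice of both sexes were used at 6 to 12 weeks of age, per the study's methods, and the number of mice per library is not given in the sources used here. A peak list holds no transcript levels, so the sorted phenotype was not checked against marker genes. With 1 library per group there was no replicate, and the intervals below cover the counting error of the WT pileup only, at summits that were placed where coverage was highest.

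Tcf1, encoded by Tcf7, is an HMG-box transcription factor of the T lineage that contacts a short A/T-rich motif and can also be found at sites without it. Tnf, Lta and Ltb lie side by side in the class III part of the major histocompatibility complex. TNF is an inflammatory cytokine that activated T cells and macrophages secrete. Lymphotoxin α forms a secreted homotrimer, and together with membrane-bound lymphotoxin β forms the heterotrimer that engages the lymphotoxin β receptor and directs lymphoid organ development. Nfkbil1 encodes a nuclear protein related to the IκB inhibitors, whereas Lst1 and Aif1 are best known from myeloid cells.

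Sequences from the mm9 reference are shown for the peaks that the description turns on, written 5′ to 3′ on the plus strand. Capitals mark exact matches on either strand to 6 searched motifs or to the last 6 letters of the Tcf/Lef core. For Tcf/Lef the core ATCAAAG was searched. For the ETS family of activators the search used CGGAAGT. For Runx factors, partners of T-cell identity, it used TGTGGTT. The GC box, as recognized by Sp factors, was taken as CCCGCCC. The sites of NF-κB (kB letters) were represented by GGANTTTCC. Those of the activation-induced AP-1 dimers were represented by TGACTCA. The first sequence is the summit of the strongest peak of the bin (chr17:35369004-35369204), the next is the peak within Tnf (chr17:35337523-35337723), and the following is the bound stretch just before the Ltb start site (chr17:35331235-35331383). The next pair comes from neighboring peaks upstream of H2-D1, each with a Runx core near its summit (chr17:35395275-35395475 and chr17:35396065-35396265). The last 3 are short stretches around an ETS core before H2-D1 (chr17:35399611-35399657) and around the exact Tcf/Lef cores found inside promoter peaks, in Lta (chr17:35341934-35341980) and before Prrc2a (chr17:35302382-35302428).
Nfkbil1 intron 2: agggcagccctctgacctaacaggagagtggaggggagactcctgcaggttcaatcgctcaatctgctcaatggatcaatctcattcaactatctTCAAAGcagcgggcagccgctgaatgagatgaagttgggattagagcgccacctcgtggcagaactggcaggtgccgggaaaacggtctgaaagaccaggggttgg
Tnf intron 3: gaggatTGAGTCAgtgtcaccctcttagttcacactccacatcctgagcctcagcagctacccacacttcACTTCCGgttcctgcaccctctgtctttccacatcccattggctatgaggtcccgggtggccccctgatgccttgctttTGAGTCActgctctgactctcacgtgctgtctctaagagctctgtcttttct
Ltb upstream: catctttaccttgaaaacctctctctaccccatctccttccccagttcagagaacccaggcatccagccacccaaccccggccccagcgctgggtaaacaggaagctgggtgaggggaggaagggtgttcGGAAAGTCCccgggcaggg
H2-D1 first upstream peak: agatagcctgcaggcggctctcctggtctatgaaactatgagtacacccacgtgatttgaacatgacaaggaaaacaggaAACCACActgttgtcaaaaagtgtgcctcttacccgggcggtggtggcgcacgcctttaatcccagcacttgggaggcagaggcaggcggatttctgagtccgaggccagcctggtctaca
H2-D1 second upstream peak: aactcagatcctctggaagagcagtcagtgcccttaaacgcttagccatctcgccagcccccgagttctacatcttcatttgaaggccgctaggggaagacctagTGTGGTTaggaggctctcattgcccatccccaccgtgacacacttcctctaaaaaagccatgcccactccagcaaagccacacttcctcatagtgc
H2-D1 start peak: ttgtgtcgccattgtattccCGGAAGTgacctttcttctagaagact
Lta intron 1: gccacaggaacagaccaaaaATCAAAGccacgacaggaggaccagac
Prrc2a upstream: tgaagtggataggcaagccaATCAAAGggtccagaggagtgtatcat

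The cytokine genes were asked first. Ltb and Lta each had a high-confidence promoter peak, whereas Tnf had its high-confidence peak further within the gene and only a weaker peak near its start. A peak counted as a promoter peak when its summit was at most 1 kb from the annotated start of any transcript.

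At Ltb (ENSMUSG00000024399.5, 35331384 to 35333265, plus strand), a peak of 630 bp lay on the start site, with its summit 49 bp upstream. The WT pileup, counted in fragments covering the summit, was 66 (95% Poisson interval 51.0 to 84.0). The control level was 5.42, the genome-wide floor of the Tcf1-deficient library and not a count at Ltb. The fold enrichment, the ratio of the pileup plus 1 to the control level plus 1, was 10.4 (8.11 to 13.2). It was the highest of the promoter peaks in the bin. The kB letters printed in capitals before the Ltb start were centered 34 bp from this summit, and were the only such match in the summit windows of the 16 high-confidence peaks.

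Ltb carried a further peak in its last coding exon, exon 3, 1.28 kb from the nearest Ltb start position. Here 39 fragments (27.7 to 53.3) stood against a control level of 8.02, the highest control level among the members. The fold enrichment was 4.43 (3.18 to 6.02), and its interval included the minimum of 4. The GC content within 100 bp of this summit was 70.1%, also the highest among the members.

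At Lta (ENSMUSG00000024402.5, 35340110 to 35342296, minus strand), a peak of 988 bp covered the start site and intron 1, where its summit lay 604 bp downstream of the start. The pileup was 75 (59.0 to 94.0), the control level 6.69 and the fold enrichment 9.89 (7.81 to 12.4). The summit window of 201 bp held none of the 6 motifs. The peak did contain an exact Tcf/Lef core, the one printed above, 265 bp from the summit and still within intron 1.

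At Tnf (ENSMUSG00000024401.8, 35336326 to 35338952, minus strand), the high-confidence peak lay in intron 3, 1.33 kb downstream of the nearest start position. It had a pileup of 40 (28.6 to 54.5) at the lowest control level, and a fold enrichment of 6.39 (4.61 to 8.64). Its summit window was the only one in the bin with AP-1 letters, in 2 copies at 52 and 91 bp from the summit, and it also held an ETS core 27 bp away.

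A weaker peak in Tnf intron 1, 672 bp from the nearest start position, had 21 fragments (13.0 to 32.1) and a fold enrichment of 3.43 (2.18 to 5.16). By distance it was a promoter peak, about as far from a start as the Lta summit, but it fell under the minimum of 4, which its interval included. No deposited peak covered a Tnf start position. At the lowest control level, 18 fragments was the smallest pileup in the whole list and 25 fragments were needed for a fold enrichment of 4, so weaker binding at the Tnf start site would not have been recorded.

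The Ltb promoter, Lta and Tnf intron 3 peaks followed this order of fold enrichment: Ltb 10.4, Lta 9.89 and Tnf 6.39. The intervals of Ltb and Lta overlapped nearly completely. That of Tnf reached 8.64, above the lower bounds of both Ltb (8.11) and Lta (7.81), so the intervals overlapped for each pair, narrowly for Ltb and Tnf. No difference between these peaks was tested.

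**Figure D1:**
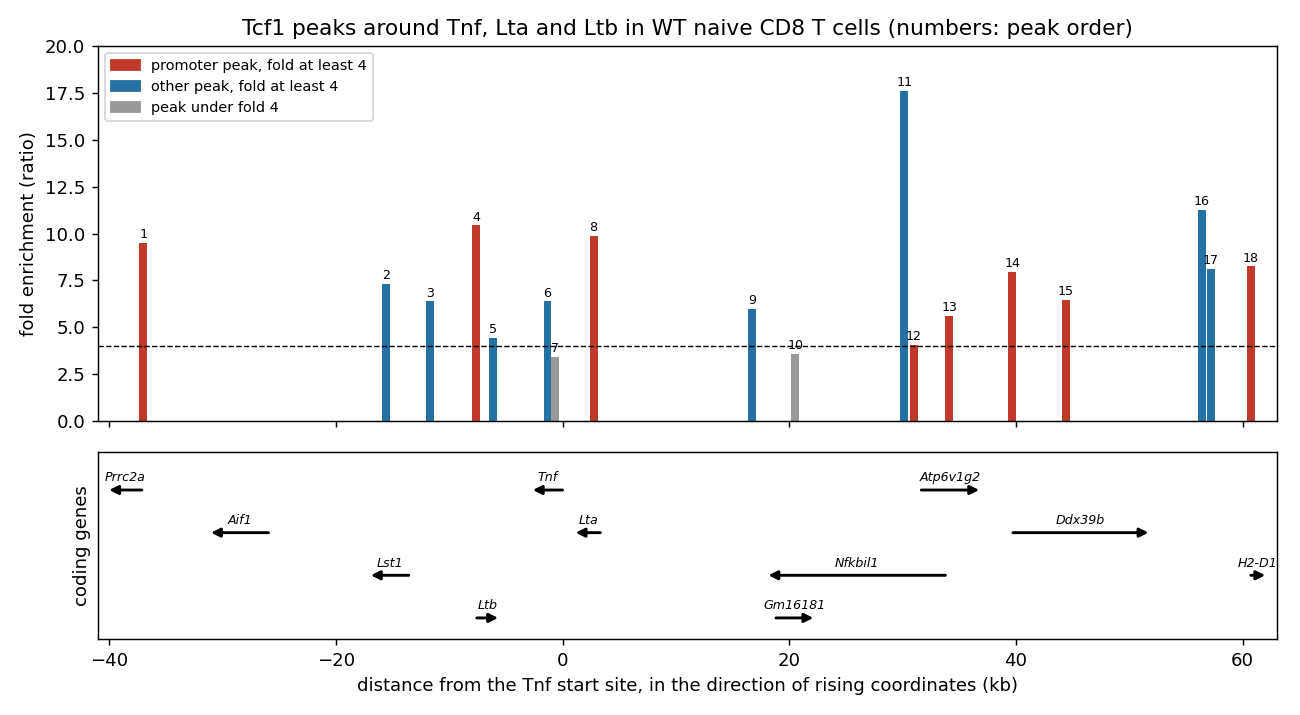
Fold enrichment (ratio, vertical axis) of the 18 deposited peaks against distance from the Tnf start site (kb), with protein-coding genes as arrows in the direction of transcription below, Prrc2a and H2-D1 being cut at the edges. The highest bar, peak 11 at 17.6, lies within Nfkbil1, the dashed line marks the minimum of 4, and no peak lies over Aif1.

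Among the neighboring genes, the strongest peak of the bin lay inside Nfkbil1 (ENSMUSG00000042419.7, 35357120 to 35372737, minus strand). In intron 2, a peak of 520 bp had a pileup of 112 (92.2 to 135) at the lowest control level and a fold enrichment of 17.6 (14.5 to 21.2). This exceeded the fold enrichment of 89.7% of all high-confidence peaks, and its interval did not overlap that of any other member. The printed window shows the last 6 letters of the Tcf/Lef core, TCAAAG, centered 3 bp from the summit, without the full core.

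A smaller peak followed 840 bp away in the same intron, with 25 fragments (16.2 to 36.9) and a fold enrichment of 4.05 (2.68 to 5.91). This was the member just inside the minimum, and an annotated noncoding Atp6v1g2 start 661 bp away placed it among the promoter peaks. The member just outside was in the same intron, at 35359362 to 35359550, where 29 fragments over a control level of 7.35 gave 3.59 (2.44 to 5.11). Its interval overlapped that of the peak just inside. A Runx core was centered 4 bp from its summit.

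Nfkbil1 and Atp6v1g2, which encodes a subunit of the vacuolar proton pump, are transcribed away from overlapping ends. A single wide peak of 1231 bp, the widest member, covered a coding start site of each, and its summit lay 320 bp upstream of Nfkbil1 and 234 bp downstream of an Atp6v1g2 start. It had 35 fragments (24.4 to 48.7), a fold enrichment of 5.61 (3.95 to 7.74) and a Runx core 18 bp from the summit. The core stood at the end of a run of CA repeats. By the nearest coding start site, all 3 high-confidence peaks of this stretch were assigned to Atp6v1g2 and 0 to Nfkbil1, although 2 of their summits were in Nfkbil1 introns. The assignment thus depended on small distances between overlapping genes.

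Lst1 (ENSMUSG00000073412.5, 35322040 to 35325384, minus strand) had 2 high-confidence peaks, neither in its promoter. One, of 1116 bp, lay in an intron 2.02 kb downstream of the nearest start, with 46 fragments (33.7 to 61.4) and a fold enrichment of 7.32 (5.40 to 9.72). The other lay 1.91 kb upstream, with 40 fragments and a fold enrichment of 6.39 (4.61 to 8.64). Aif1 (ENSMUSG00000024397.7, 35307936 to 35313013, minus strand) had no deposited peak in its body, and the nearest summit was 7.62 kb from any of its coding start positions. It lay within the longest stretch of the bin without a high-confidence summit, 21.4 kb between Prrc2a and Lst1.

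The remaining high-confidence peaks were assigned, by nearest coding start site, to genes other than the 6 of the cluster. The promoter of Prrc2a, shared with the lincRNA gene Gm17705 on the other strand, had a peak of 1069 bp with 60 fragments (45.8 to 77.2) and a fold enrichment of 9.50 (7.29 to 12.2). The exact Tcf/Lef core in this peak, printed above, was 449 bp from the summit. Ddx39b, an RNA helicase gene, had a peak 60 bp upstream of its start with a fold enrichment of 7.95 (5.94 to 10.4). A further peak in a Ddx39b intron (6.46, 4.87 to 8.42) counted as a promoter peak only by a small nucleolar RNA start 754 bp away. A peak between Lta and Nfkbil1 had a fold enrichment of 5.99 (4.34 to 8.07). It lay 2.09 kb upstream of the predicted gene Gm16181, which is itself within Nfkbil1.

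H2-D1, which encodes a classical MHC class I heavy chain, had 3 peaks. That at the start site, 7 bp downstream, had 52 fragments (38.8 to 68.2), a fold enrichment of 8.26 (6.21 to 10.8) and the printed ETS core 48 bp from the summit. Those 4.30 and 3.51 kb upstream had fold enrichments of 11.3 (9.10 to 13.8) and 8.10 (6.07 to 10.6), with a Runx core 17 and 8 bp from their summits. The summits of this upstream pair were 790 bp apart, the closest neighbors among the high-confidence members. Class I genes resemble each other in sequence, and how reads that match several of them were handled is not given for this library.

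**Figure D2:**
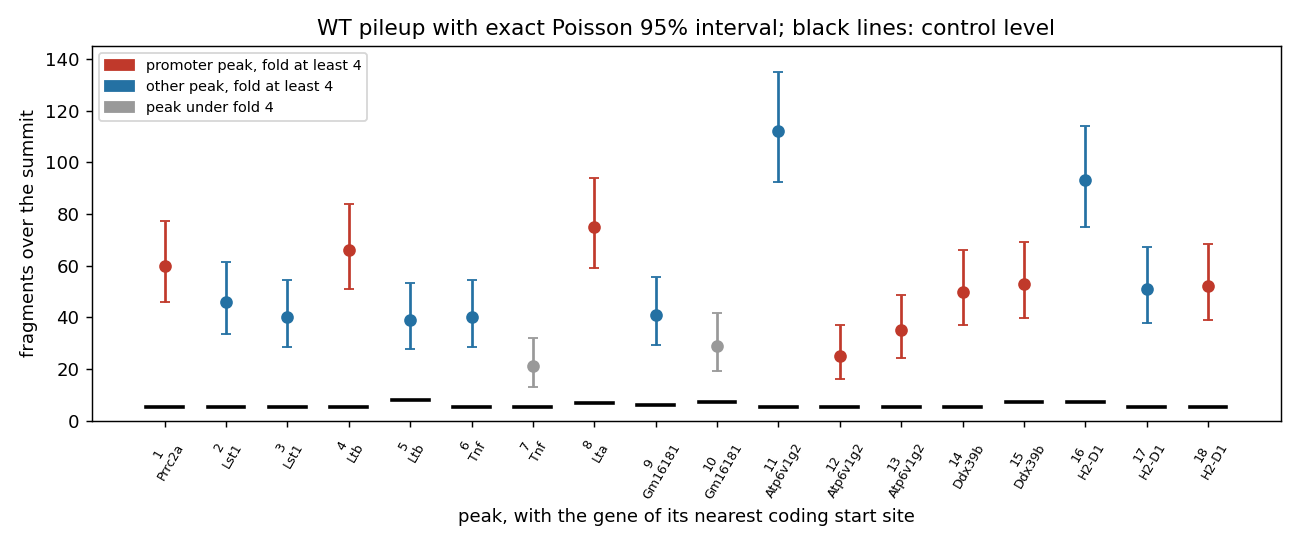
WT fragments over the summit of each of the 18 peaks in order of position, with exact Poisson 95% intervals, and the control level as a black line. Pileups run from 21 to 112, whereas control levels stay between 5.42 and 8.02.

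Across the 16 high-confidence members, the median pileup was 50.5 (range 25 to 112) and the median fold enrichment 7.63 (4.05 to 17.6), beside 44.0 and 6.86 in all 19042 high-confidence peaks. For 3 of the 16, the interval of the fold enrichment reached under 4. The control level stood at its lowest value, a genome-wide floor of 5.42 fragments, at 11 of the 16 (68.8%), beside 86.3% of the whole list. The other 5 ranged from 6.02 to 8.02. At the floor, the fold enrichment follows from the WT pileup alone.

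Next, promoter peaks were contrasted with the others. Promoters held 8 of the 16 summits (exact binomial interval of the share 24.7% to 75.3%), beside 39.6% of the whole list. Counting coding start sites only, 6 remained (37.5%, beside 35.9% of the list), at Prrc2a, Ltb, Lta, Atp6v1g2 with Nfkbil1, Ddx39b and H2-D1. By gene, 7 of the 11 coding genes that start in the bin had a high-confidence summit within 1 kb of a coding start (63.6%), beside 32.2% of all coding genes. These 7 included Ltb, Lta and Nfkbil1, while Tnf, Lst1 and Aif1 were without one. Nfkbil1 and Atp6v1g2 shared the same peak. Because the bin was selected on its number of peaks, the share of 63.6% is not independent of that choice. Its background of 32.2% includes genes silent in T cells.

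The classes in the bin had similar fold enrichments, with a median of 8.10 (4.05 to 10.4) in promoter peaks and 6.86 (4.43 to 17.6) in others, and the ranges overlapped. The order of these medians turned with promoters of 2.5 kb (6.89 and 9.68) or a fold minimum of 8 (9.70 and 11.3). Over the whole list the corresponding medians were 6.54 and 7.17. Both classes in the bin included peaks near the minimum, and the highest value of each was the Ltb promoter and the Nfkbil1 intron.

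Width was added to the contrast after seeing the data. Promoter peaks of the bin were wider, with a median of 886 bp (343 to 1231) and 436 bp (348 to 1116) in the others, beside 541 and 452 bp in the list. With promoters of 2.5 kb these medians in the bin came to 575 and 468 bp. All 6 peaks at coding start sites measured between 630 and 1231 bp. Of the other 10 peaks, only the Lst1 intron peak was wider than 630 bp.

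Within 100 bp of the summit, the GC content of the classes in the bin differed by 0.995 percentage points, at a median of 55.5% (44.3 to 68.7) in promoter peaks and 54.5% (52.7 to 70.1) in others. In the whole list these medians were 62.2% and 48.8%. Thus the median of the promoter peaks of the bin was below that of promoter peaks in the list, and the median of the other peaks above theirs, without a test of either difference. Ddx39b had the most GC-rich promoter summit (68.7%), while that of Atp6v1g2 with Nfkbil1 had 47.3%. The ratio of observed to expected CpG, high in CpG islands, had medians of 0.315 in promoter peaks and 0.425 in others of the bin, beside 0.814 and 0.246 in the list. By coding start sites alone these medians were 0.406 and 0.322 in the bin and 0.836 and 0.25 in the list, so the order of the classes in the bin depended on which start sites were used. The gap in GC content between the classes also moved with the choice of window, from 51.5% and 55.4% within 50 bp of the summit to 60.2% and 53.5% over the whole peak, and by coding start sites it was 58.7% and 54.0%.

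**Figure D3:**
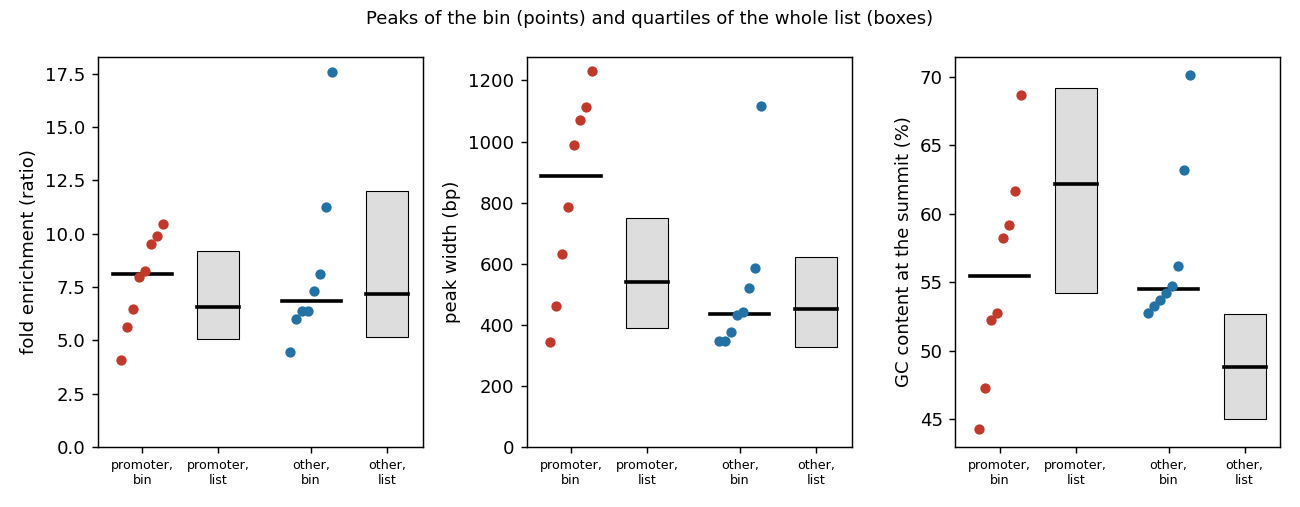
Fold enrichment (ratio), width (bp) and GC content within 100 bp of the summit (%) of the 16 high-confidence peaks (points, with their median as a line), beside boxes from the lower to the upper quartile of the whole list with its median. Median widths in the bin are 886 bp for promoter peaks and 436 bp for others, while the GC medians are 55.5% and 54.5%.

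Motifs were then compared with the list. The exact Tcf/Lef core was absent from the summit windows of all 16 high-confidence peaks (0 of 16, which allows a share of up to 18.8%, taken as 3 counts of the total, or 20.6% as the upper bound of the exact binomial interval), beside 10.2% of windows of the same length in the whole list, 5.13% in its promoter peaks and 13.5% in its others. At 16 peaks this does not set the bin apart. Over the full extent of the peaks, 2 of 16 held the core, at Lta and Prrc2a, beside 15.1% of the list. The 6 letters TCAAAG, which the core contains, were in 1 summit window, that of the Nfkbil1 intron, beside 26.4% of the list. The interval of this share, 0.158% to 30.2%, included that of the list. Further copies lay in peaks outside the summit windows, for example in the Lst1 upstream and Tnf intron 3 peaks.

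The Runx core was most frequent in summit windows, at 4 of 16 (25%, interval 7.27% to 52.4%), beside 15.5% of the list. These were the upstream pair at H2-D1, the Atp6v1g2 and Nfkbil1 start peak and the Ddx39b intron peak, and the core lay 8 to 47 bp from the summit in each. The ETS core was in 2 of 16 windows (12.5% and 6.93% of the list), in Tnf intron 3 and at the H2-D1 start. The kB letters and the AP-1 letters were in 1 window each, in Ltb and Tnf (0.909% and 4.67% of the list). The GC box was in 0 of 16 windows, with the same limits, beside 17.8% of the list, whereas over the full extent of the peaks it was in 6 of 16, beside 28.5%. In summit windows, the exact binomial interval of each of the 6 motifs included its share in the list. Such matches are letters in a window and not bound sites.

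**Figure D4:**
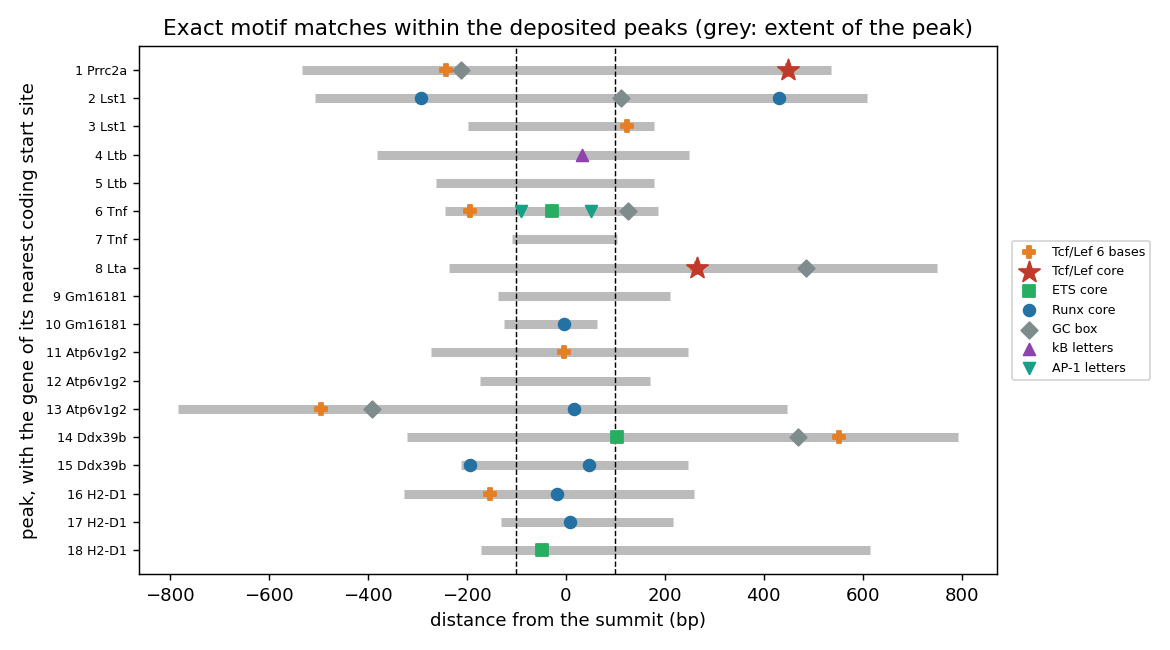
Exact matches of 6 motifs and of the 6-letter Tcf/Lef form by distance from the summit (bp), 1 row per peak, with the extent of each peak in grey and dashed lines at 100 bp. Both full Tcf/Lef cores, in the Prrc2a and Lta peaks, lie outside the dashed lines, at 449 and 265 bp.

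The bin, which was selected on its number of peaks, held more high-confidence summits than its surroundings. The 3 bins before it held 4, 5 and 4, and the 3 after it 2, 5 and 2. The nearest summits beyond the edges were 27632 bp below, nearest to Bag6 (fold enrichment 4.87), and 32957 bp above, nearest to H2-Q2 (13.7). Of 25667 bins along the chromosomes, 4 held 16 or more summits, and the median of the 7750 bins with any was 2. Within the bin, the median distance between neighboring summits was 4069 bp, and 14 of the 16 had another within 10 kb.

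The 3 other bins of that fullness differed in makeup. The Arl4c bin had 17 summits with 1 in a promoter and 4 with the Tcf/Lef core, the Gimap bin 17 with 6 and 2, and the bin of Cd5 and Cd6 16 with 2 and 1. The cytokine bin, with 8 and 0, had 11 coding genes starting in it, against 1, 6 and 2 in that order. Its highest fold enrichment, 17.6, was below the highest of the others (59.8, 34.1 and 32.4), and its median GC content of 54.5% was above theirs (48.3%, 46.8% and 49.0%). These are single regions, given side by side without a test.

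**Figure D5:**
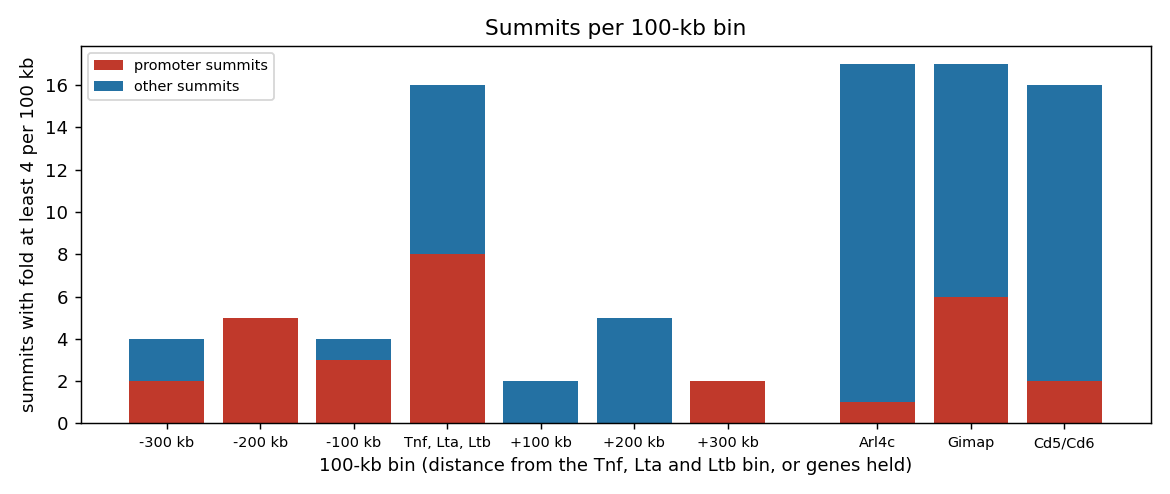
Number of high-confidence summits per 100-kb bin, split into promoter and other summits, for the bin of Tnf, Lta and Ltb, the 3 bins on each side of it and the 3 other bins with 16 or more. The cytokine bin holds 16 summits, 8 of them in promoters, and its 6 neighbors hold 2 to 5.

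Lastly, the genes through which TNF and lymphotoxin act were listed with their high-confidence peaks by nearest coding start site. Of 14 genes, 12 had at least 1, with 34 peaks in all, beside 41.6% of all coding genes, a background that includes genes silent in T cells. The 4 receptor genes had 13 peaks and 0 at a coding promoter, beside 35.9% of the peaks in the whole list. Peaks of the same gene are not independent. By gene, 0 of the 4 had a promoter peak, beside 28.6% of all coding genes, and 4 genes are too few to set them apart. Tnfrsf1b, the TNF receptor of lymphocytes that promotes survival and activation, had 8 of the 13 peaks, with a maximum fold enrichment of 56.1, 10.6 kb downstream of its start. Tnfrsf14, the herpesvirus entry mediator that binds lymphotoxin α and LIGHT, had 3 with a maximum of 24.0, and Tnfrsf1a, the death-domain receptor, had 2 with a maximum of 21.5. Ltbr, the lymphotoxin β receptor, had 0 by this assignment and 2 in its body and the 50 kb upstream.

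Adam17, which encodes the enzyme that sheds TNF from the membrane, had 1 promoter peak at a fold enrichment of 7.95. Of the 9 adaptor and kinase genes, 7 had a promoter peak by this assignment, beside 28.6% of all coding genes, with fold enrichments of 28.7 at Ripk1 and 25.6 at Birc3 but 7.42 at Traf3 and 7.27 at Traf5. Map3k14, the kinase of the noncanonical NF-κB pathway, had 4 peaks with a maximum of 21.3, and the adaptor gene Tradd had 0 by this assignment and 2 in its body and the 50 kb upstream. The Tcf/Lef core was in 4 of the 34 summit windows (11.8%), at Tnfrsf1a, Tnfrsf1b and Map3k14, a share near the 10.2% of the whole list.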

How the data were processed

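Tcf1 ChIP-seq libraries of WT and Tcf1-deficient naïve CD8+ T cells (1 each) were aligned by the authors to mm9 with Bowtie2 2.2.5, and peaks were called with MACS2 2.1.1.20160309 in paired-end mode with a p limit of 1e-05 and duplicate fragments reduced to 1. According to the file headers, 36938606 WT and 27625250 control fragments were kept. The deposited signal (pileup) is an unscaled coverage in whole fragments. The deposited fold enrichment is a ratio of the pileup plus 1 to the control level plus 1. The deposited −log10 p compares both libraries, not the genotypes, and the deposited −log10 q is its adjusted form. All deposited columns used belong to these samples.

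The control level was computed back from pileup and fold enrichment. Each summit was assigned to its nearest start site in GENCODE vM1 on NCBIM37 (mm9), for any and for coding transcripts. GC content and motifs on both strands were read within 100 bp of summits. Motif search, assignment and control level were tested on simulated data. Python 3.11.15, pandas 2.3.3 and scipy 1.17.1 were used. The members, gene lists and motifs were chosen with earlier results of these data known. Genes named were the 6 of the cluster, every gene nearest to a peak of the bin, the pathway list and genes in bins of equal or greater fullness. Bag6 and H2-Q2 were named as nearest to the next summits beyond the edges. Peaks are not replicates, so no test was run.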

Additional observations from a re-analysis of the deposited data

How the results depend on the processing

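No paired analysis was possible because each group had 1 library. The cause of the moves below was not tested. Of 51 alternatives over 14 results, 35 kept the direction and stayed within the interval of a share, within 1.5 times a count or, for contrasts of class medians, between the extremes of the classes. Medians hardly leave such extremes, so for these contrasts only the direction was compared. The log2 ratio of median widths, 1.02 as reported, stayed between 0.30 and 1.28. The bin held 7 summits at a fold minimum of 8 and 10 when moved by 50 kb to lower coordinates, but 11 when moved as far the other way. Promoters of 2.5 kb took 87.5% of the summits. The log2 ratio of the median fold enrichment of promoter to other peaks, 0.24 as reported, was -0.21 at a fold minimum of 8 and -0.49 with promoters of 2.5 kb, and the difference in GC content, 0.995 percentage points as reported, was -3.96 within 50 bp but between 1.74 and 6.71 under the other 5 alternatives, so neither order of the classes held throughout. The Tcf/Lef core was found in 2 peaks over their full extent, its 6 letters in 1, and the core with any 1 base free in 7 (43.8%, beside 56.5% of the list). The ETS core was found in 1 peak within 50 bp, the kB letters in 2 within 250 bp, the AP-1 letters in 0 within 50 bp and 2 within 250 bp, and the GC box in 3 within 250 bp and 6 over the full extent. Without the pseudocount, 0 members stood at the control floor, which follows from the formula. Coding start sites for fold enrichment and GC content, and the comparison of widths with its alternatives, were added after seeing the data. At this depth, binding under 18 fragments could not enter the list.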
